A study of Mus musculus with 7 samples.

Results

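The genes described here encode protein subunits of the small nuclear ribonucleoproteins (snRNPs), the RNA and protein particles from which the spliceosome is built. They were chosen by symbol alone, as every entry whose symbol starts with Snrp, Sf3a, Sf3b or Prpf, or is Lsm1 to Lsm8, which gave 42 of the 25912 entries listed in each library. By role they comprise 8 Sm core genes, 4 genes for proteins particular to the U1 or U2 particle, 9 SF3a and SF3b genes, 8 Lsm genes, 5 Prpf genes of the particle that joins U4, U5 and U6, and 8 other Prpf genes.

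Smart-seq2 libraries were made from pools of 10 mouse oocytes, 2 libraries before maturation at the germinal vesicle (GV) stage, 3 of oocytes matured to metaphase II (MII) with the solvent DMSO, and 2 of oocytes matured to MII with BYBX, a small molecule that binds RNA G-quadruplexes (rG4s). All oocytes came from young females of a C57BL/6 background primed with gonadotropin, and no group carried a transgene or deletion. The labels give the genotype of the BYBX libraries as Treat and that of the others as Control, and list no treatment for GV, whereas the methods name DMSO for GV and MII controls alike. Nothing in the labels says that the libraries of a group came from separate animals, so p-values measure the spread between libraries, which may be technical. Reverse transcription started from oligo-dT, so a level follows polyadenylated RNA, and because each library is a pool, fewer oocytes with a transcript and less of it per oocyte cannot be told apart.

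Levels are in FPKM, fragments scaled by transcript length and by library depth, which the authors then adjusted to an added spike-in. By the methods, samples from different batches were also scaled to the GV samples of the same batch. The batch of each library and the batch factors are not given in the sources used here. On this scale the libraries summed to between 402113 and 489569 FPKM in GV, between 109732 and 127254 FPKM in MII with DMSO, and between 201482 and 246710 FPKM in MII with BYBX, and every comparison between groups rests on that scaling. All 15 oocyte markers examined were listed and together made up 2.74% to 3.60% of a library's summed FPKM. The 17 markers of granulosa and cumulus cells made up at most 0.00289%, and the erythrocyte markers at most 0.000487%. The 8 immune markers summed to 59.5 and 47.5 FPKM in GV, 1.28 to 1.85 FPKM in MII with DMSO, and 7.97 and 7.38 FPKM in MII with BYBX, most of it C1qb, and their part in the results was not tested.

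Pre-mRNA splicing is carried out by snRNPs that assemble anew on each intron. In most of these particles a small nuclear RNA is encircled by a ring of Sm proteins, and proteins particular to U1 or U2 recognise the ends of the intron and its branch site. The U6 particle carries a ring of Lsm proteins in place of the Sm ring, and a cytoplasmic ring that shares most of those subunits acts in the decay of deadenylated mRNA. Fully grown oocytes have largely stopped transcription and live on mRNAs made and spliced during growth, many of which are degraded while the oocyte matures.

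The snRNP genes ranged widely in level. Mean GV levels ran from 0.0789 FPKM for Prpf19 to 217 FPKM for Snrpd3, with a median over the 42 genes of 28.6 FPKM. The 2 GV libraries held 39 of the 42 genes at 1 FPKM or more, each of the 3 MII libraries with DMSO held 32, and the 2 BYBX libraries held 39 and 38. Relative to the GV mean, the median gene stood at 20.3% in MII with DMSO, with a range of 0.545% to 239%, and at 54.4% in MII with BYBX, with a range of 21.6% to 202.2%. Over all 9202 entries that passed the level filter, the medians were 16.3% and 43.4%. The sets differ in that the 42 genes include Prpf19, Snrpf and Sf3a2, which did not pass the filter. As a share of a library's summed FPKM, which does not depend on the factor that scales the whole library, the 42 genes made up 0.395% and 0.443% in GV, 0.390%, 0.593% and 0.526% in MII with DMSO, and 0.537% and 0.415% in MII with BYBX. These shares overlapped between all 3 groups.

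**Figure D1:**
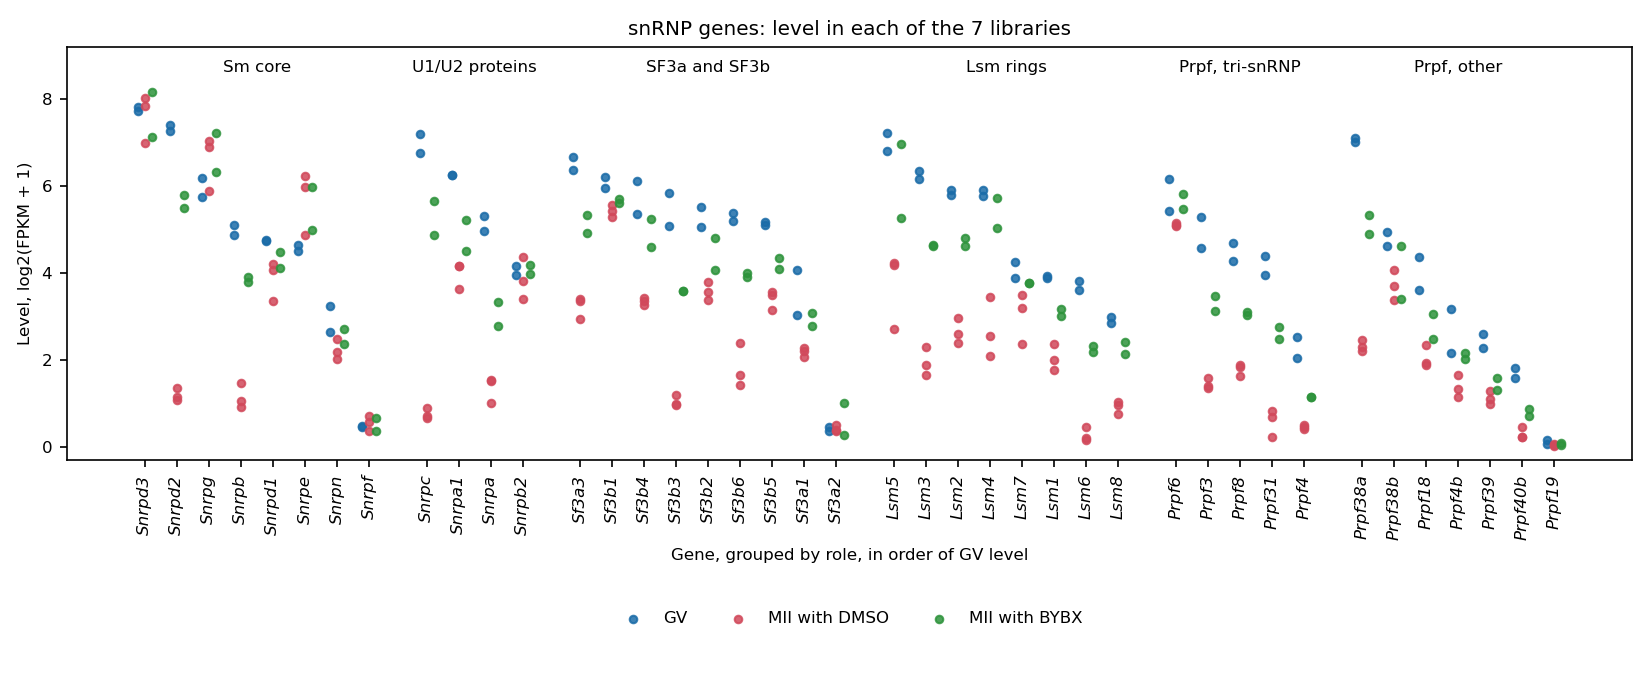
Level of 41 of the 42 genes in the 7 libraries as log2(FPKM + 1), with genes grouped by role and ordered by GV level, and 1 point for each library. In most genes the MII libraries with DMSO lie lowest and those with BYBX lie between them and GV, while Snrpd3, Snrpg, Snrpe and Snrpb2 do not follow this order.

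The filter, a mean of the 3 group means of at least 1 FPKM, was passed by 39 of the 42 genes. An entry could pass it through a high GV level alone. Among the 9202 entries that passed, 3456 had a mean under 1 FPKM in MII with DMSO, 617 in MII with BYBX and 28 in GV. Prpf19, which encodes a ubiquitin ligase of the active spliceosome, reached at most 0.116 FPKM in any library. Snrpf, the gene for the Sm protein F, lay between 0.287 and 0.636 FPKM, and Sf3a2 between 0.213 and 1.01 FPKM. These genes were not tested. Snrpf is uncertain, because 89.5% of the 50-base windows of its transcript also occur in transcripts of other genes, among them Ccdc38 on the opposite strand.

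From GV to MII with DMSO, nearly the whole group fell. In the limma fit across all 9202 entries, 35 of the 39 tested genes had a lower level in MII at a Benjamini-Hochberg adjusted p under 0.05, against 88.3% of all tested entries. Snrpe was higher, a call made for 0.272% of all entries, and Snrpd3, Snrpg and Snrpb2 were not past the threshold. The median log2 difference was -1.95 over the 39 genes and -1.83 over all tested entries, with 21 of the genes below the latter value and 18 above it. Of the 39 genes, 35 had no overlap between libraries with MII lower, against 92.5% of all entries, and Snrpe alone had none with MII higher, against 0.315%. The share of snRNP genes that fell was therefore near that of all entries, while single genes ranged from -6.23 for Snrpc to 1.11 for Snrpe on the log2(FPKM + 1) scale.

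With BYBX, 28 of the 39 genes were higher than in MII with DMSO, against 65.2% of all tested entries (limma, adjusted p under 0.05). In this fit 0 of the 39 genes were lower, at an adjusted or an unadjusted p under 0.05, against 0.0326% of all entries. The median log2 difference was 0.87 over the 39 genes and 0.84 over all entries. Libraries of the 2 groups did not overlap in 31 genes, each with BYBX higher, against 79% of all entries. The 11 genes not past the threshold included Snrpd3, Snrpg, Snrpd1, Snrpe, Snrpn, Snrpb2, Sf3b1, Prpf6, Prpf38b and Prpf39.

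Compared with GV, MII oocytes with BYBX had lower levels of 24 of the 39 genes, against 69.2% of all tested entries (limma, adjusted p under 0.05). In this fit 0 were higher, at an adjusted or an unadjusted p under 0.05, against 0.315% of all entries. The median log2 difference was -0.91 over the genes and -0.99 over all entries. All BYBX libraries lay below all GV libraries in 31 genes, against 82.3% of all entries, and above them in Snrpg and Snrpe, against 0.848%. The comparisons share libraries, so their values are given side by side and were not related to each other.

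**Figure D2:**
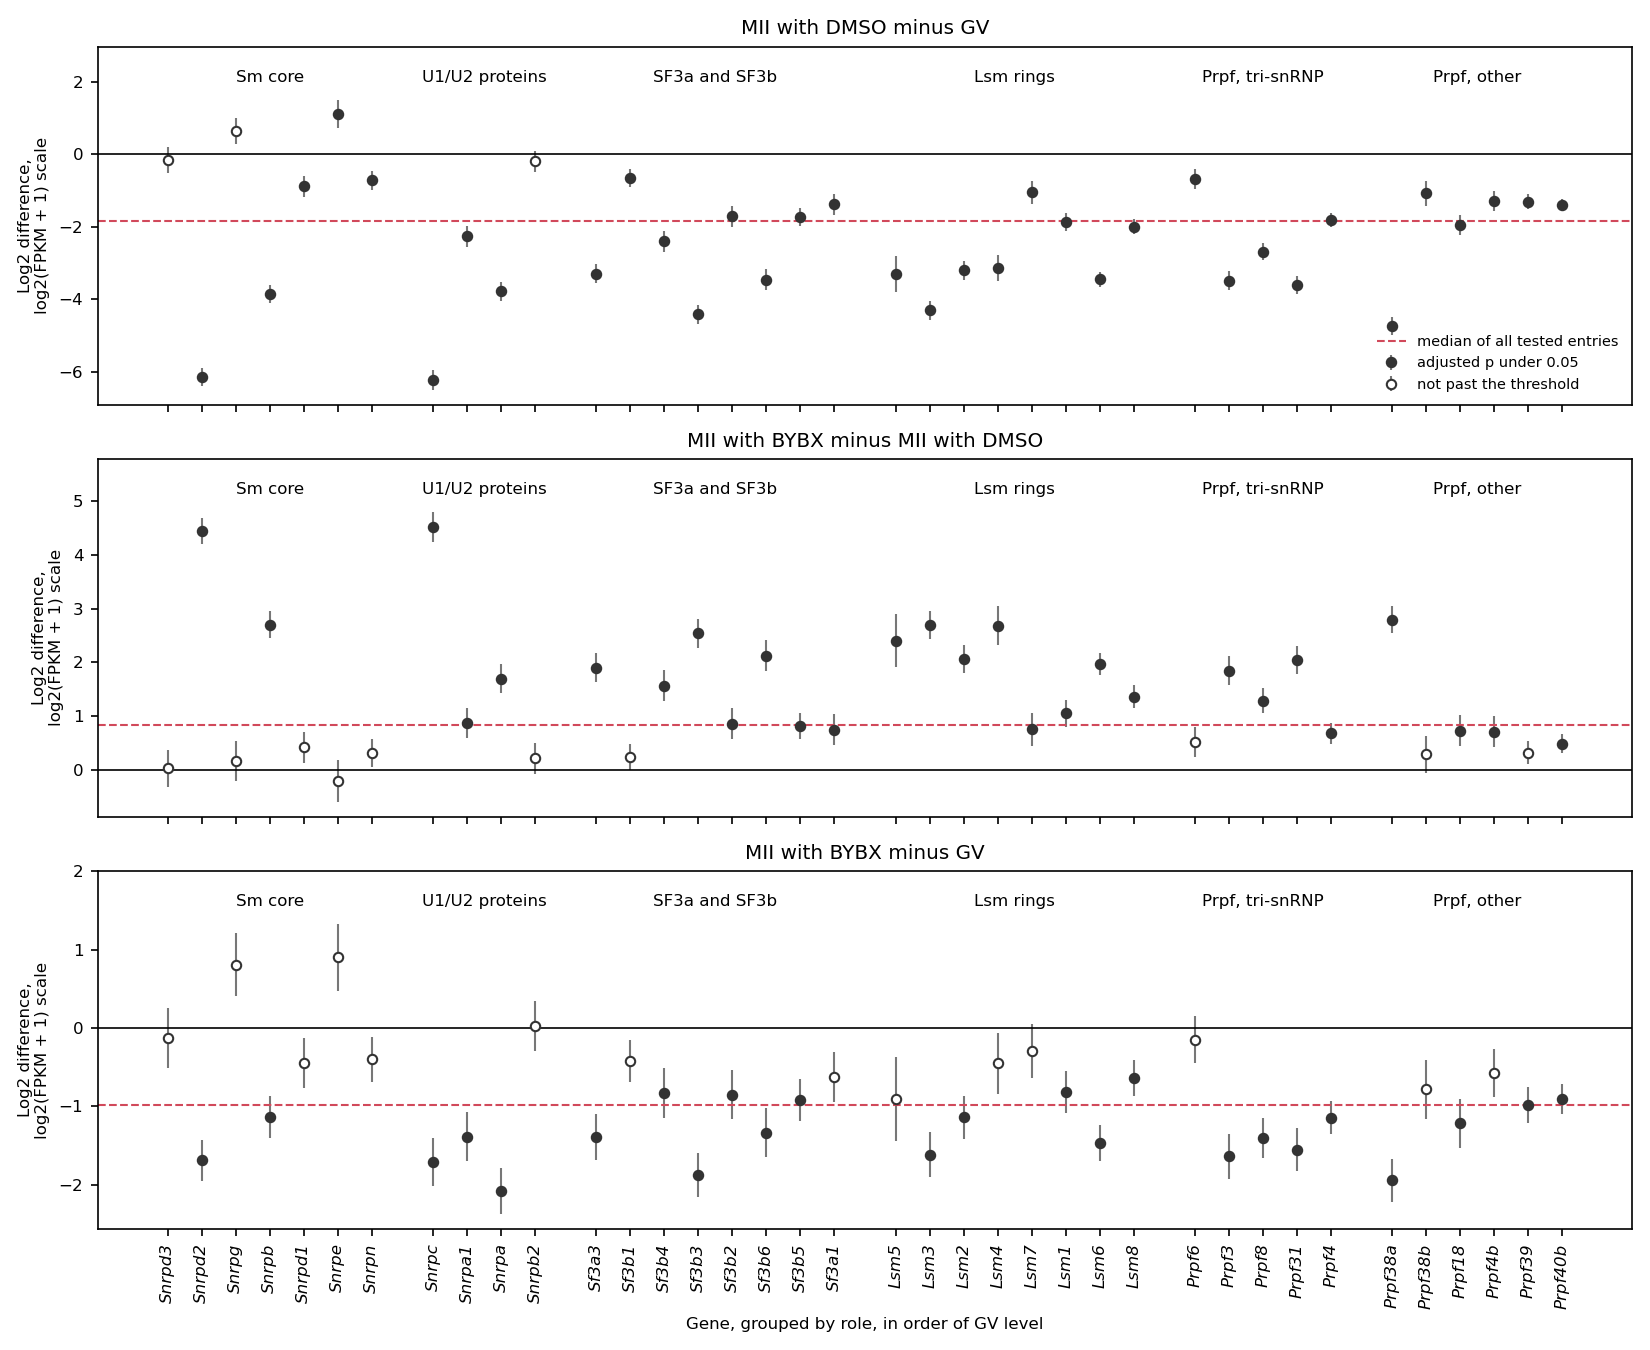
Log2 difference of 38 of the 39 tested genes in the 3 comparisons, on the log2(FPKM + 1) scale, with bars of 1 standard error from limma, filled points for an adjusted p under 0.05 and a dashed line at the median of all 9202 tested entries. In the upper panel Snrpd2 and Snrpc lie near -6 and Snrpe lies above 0, and in the middle panel the same Snrpd2 and Snrpc lie highest.

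The direction of the smaller changes depends on the scale. When all libraries were brought to 1 common FPKM total, the median difference of all tested entries moved from -1.83 to -0.56 for MII with DMSO against GV, from 0.84 to 0.34 for BYBX against DMSO, and from -0.99 to -0.17 for BYBX against GV. With libraries centred on their medians it became 0.47, -0.44 and 0.04. On that common total, MII with DMSO had 20 of the 39 genes below GV and 10 above it, against 49.5% and 23.3% of all entries. With BYBX, 18 genes were then higher than with DMSO and 3 were lower, against 39.9% and 8.22%, and 4 were higher and 3 lower than in GV, against 5.3% and 13.3%. After median centring the counts were 13 lower and 18 higher for MII with DMSO against GV, against 26.7% and 48.8% of all entries, and 13 higher and 13 lower for BYBX against DMSO, against 18.4% and 43.9%. For BYBX against GV they were then 5 higher and 3 lower, against 15.2% and 13.6%. Counts of the role groups below under these scalings are to be read against the same shares of all entries. For Snrpd2, Snrpd3, Snrpg, Snrpe and Sf3b1, the difference relative to the median of all tested entries is therefore given as well. Calls are also given with 1 library left out. The fit shares its spread between the 3 groups. Leaving out a library that is in neither group compared can therefore change an adjusted p, but not the difference.

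The Sm core genes showed the widest range. The Sm ring is built from the proteins B, D1, D2, D3, E, F and G in equal numbers, and the genes for these partners differed in level and in direction. Of 7 tested genes, 4 were lower and 1 was higher in MII with DMSO than in GV, against 88.3% and 0.272% of all entries, with a median difference of -0.72. With BYBX 2 were higher than with DMSO, against 65.2%, with a median difference of 0.32. On a common FPKM total these counts were 2 lower and 5 higher in the former comparison, against 49.5% and 23.3% of all entries, and 2 higher and 2 lower in the latter, against 39.9% and 8.22%. With median centring they were 2 lower and 5 higher, and 2 higher and 5 lower.

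Snrpd2 (GRCm38 chromosome 7, 19149722 to 19153542, plus strand), the gene for the Sm protein D2, fell most among them. Its level was 153 and 168 FPKM in the GV libraries, 1.58, 1.22 and 1.11 FPKM in MII with DMSO, and 54.5 and 44.1 FPKM in MII with BYBX. The 3 groups did not overlap, and the MII mean with DMSO was 0.811% of the GV mean, against 30.7% with BYBX. The log2 difference of MII with DMSO minus GV was -6.14 (standard error 0.24, limma adjusted p = 2.6e-10), or -4.30 relative to the median of all entries. The difference of BYBX minus DMSO was 4.45 (standard error 0.24, limma adjusted p = 2.4e-08), or 3.61 relative to the median of all entries.

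Snrpb, the gene for the Sm protein B, moved the same way, with 33.6 and 28.3 FPKM in GV, 0.904, 1.07 and 1.76 FPKM in MII with DMSO, and 14.0 and 12.9 FPKM in MII with BYBX. Its log2 differences were -3.84 for MII with DMSO minus GV and 2.70 for BYBX minus DMSO (standard error 0.24 for both, limma adjusted p = 4.5e-09 and 6.9e-07). Snrpn encodes SmN, a close relative of SmB known from the brain and from an imprinted locus, and its changes were smaller. Snrpn stood at 8.47 and 5.27 FPKM in GV, 3.54, 3.03 and 4.61 FPKM in MII with DMSO, and 5.61 and 4.15 FPKM in MII with BYBX, so that the BYBX libraries overlapped both other groups. Its difference of -0.72 (standard error 0.26, limma adjusted p = 0.018) in MII with DMSO did not hold without GV replicate 1 (adjusted p = 0.201) or MII_DMSO replicate 2 (adjusted p = 0.0669), and it was 0.86 on a common FPKM total. Of the 50-base windows of Snrpn, 24.3% also occur in transcripts of other genes, largely those of the overlapping Snurf locus.

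Snrpd3 (chromosome 10, 75517551 to 75537381, plus strand), the gene for the Sm protein D3, had the highest GV mean of the 42 genes. It stood at 211 and 224 FPKM in GV, at 126, 258 and 228 FPKM in MII with DMSO, and at 287 and 138 FPKM in MII with BYBX. The 3 groups overlapped, and the 2 low values were those of MII_DMSO replicate 1 and MII_BYBX replicate 2. The log2 difference of MII with DMSO minus GV was -0.15 (standard error 0.35, limma adjusted p = 0.68), or 1.68 relative to the median of all entries, and it was 1.72 on a common total and 2.15 with median-centred libraries. The difference of BYBX minus DMSO was 0.03 (standard error 0.35, limma adjusted p = 0.94), and it was -0.86 on a common FPKM total.

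Snrpg and Snrpe, the genes for the Sm proteins G and E, which sit side by side in the ring, had higher group means in both MII groups than in GV. Snrpg stood at 52.7 and 71.8 FPKM in GV, at 58.4, 130 and 119 FPKM in MII with DMSO, and at 148 and 79.8 FPKM in MII with BYBX. Its difference of 0.64 for MII with DMSO minus GV (standard error 0.36, limma adjusted p = 0.11) did not pass, but it was 1.001 without MII_DMSO replicate 1 (adjusted p = 0.00459). Relative to the median of all entries it was 2.48, the value ranked 30 from the highest of 9202.

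Snrpe (chromosome 1, 133603871 to 133610291, minus strand) stood at 21.8 and 24.2 FPKM in GV, at 28.3, 73.8 and 62.5 FPKM in MII with DMSO, and at 62.1 and 30.8 FPKM in MII with BYBX. Every MII library lay above both GV libraries. The difference of MII with DMSO minus GV was 1.11 (standard error 0.39, limma adjusted p = 0.015), or 2.95 relative to the median of all entries, ranked 12 from the highest of 9202. This call was lost without GV replicate 1 (adjusted p = 0.137), GV replicate 2 (0.0883) or MII_DMSO replicate 2 (0.0525). The difference of BYBX minus GV was 0.90 (standard error 0.43, limma adjusted p = 0.073), and it passed the threshold without MII_DMSO replicate 1 (adjusted p = 0.0143) or MII_BYBX replicate 2 (0.0171). Between the MII groups the difference was -0.21 (standard error 0.39, limma adjusted p = 0.64). It passed the threshold as lower with BYBX on a common FPKM total (-1.09, limma adjusted p = 0.028) and with median centring (-1.49, adjusted p = 0.0087).

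For Snrpg the difference of BYBX minus GV was 0.81 (limma adjusted p = 0.085) with all libraries, and 1.25 without MII_BYBX replicate 2. Without MII_DMSO replicate 1 it stayed at 0.81 but passed the threshold (limma adjusted p = 0.0248). That library is in neither group, so only the spread shared by the 3 groups had changed. The same holds for Snrpe without MII_DMSO replicate 1. Parts of both transcripts occur in processed pseudogenes, 28.4% of the 50-base windows for Snrpe and 18.6% for Snrpg, and the authors kept uniquely mapped reads, so their levels are uncertain to that extent. Snrpd1, the gene for the Sm protein D1, had 26.0 and 25.8 FPKM in GV, 9.23, 17.4 and 15.8 FPKM in MII with DMSO, and 21.5 and 16.3 FPKM in MII with BYBX. Its difference in MII with DMSO of -0.88 (standard error 0.29, limma adjusted p = 0.011) was lost without GV replicate 1, GV replicate 2 or MII_DMSO replicate 1 (adjusted p = 0.0678, 0.0581 and 0.0580), and it was 0.91 on a common FPKM total.

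**Figure D3:**
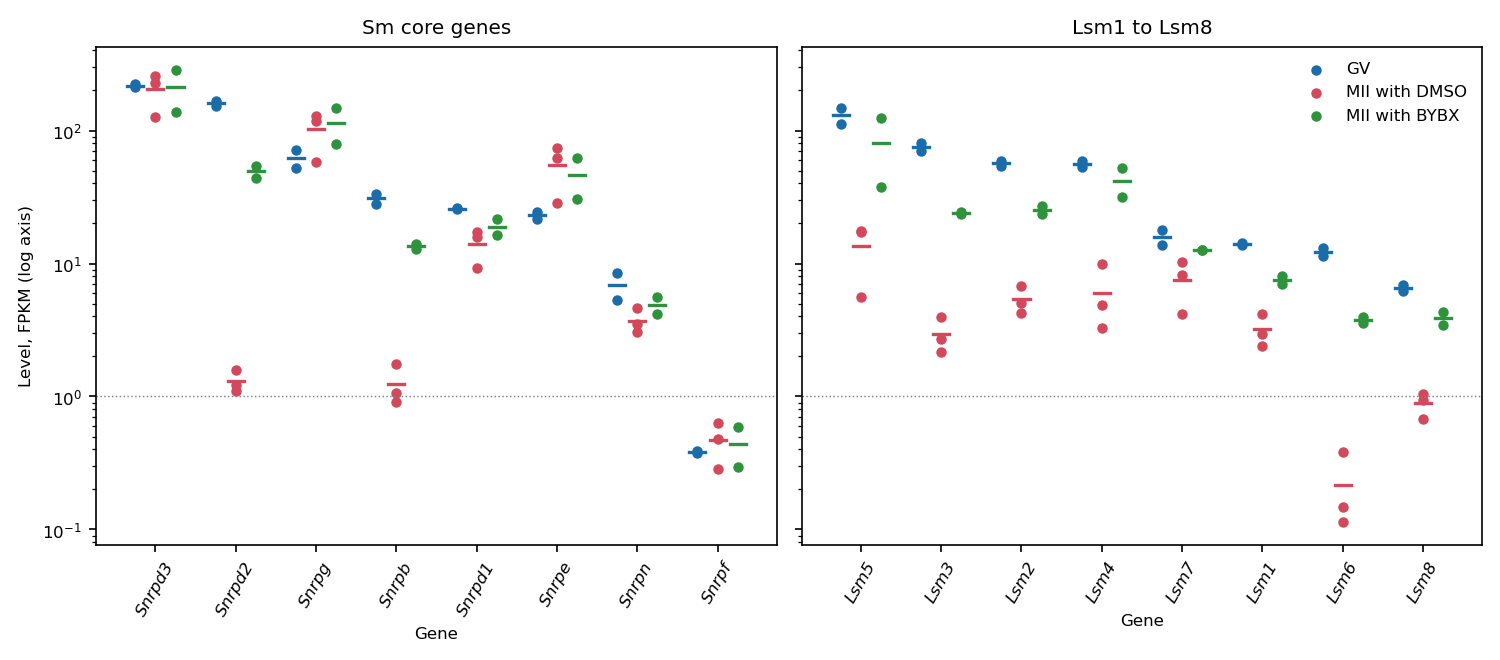
FPKM on a log axis of the Sm core genes and of Lsm1 to Lsm8 in the 7 libraries, with 1 point for each library, a short bar at each group mean and a dotted line at 1 FPKM. In the Sm panel the points of MII with DMSO (red) for Snrpd2 and Snrpb drop near 1 FPKM while each of Snrpd3, Snrpg and Snrpe has at least 2 of its 3 above both GV points, and in the Lsm panel every gene has its MII libraries with DMSO lowest.

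Among the genes for proteins particular to U1 or U2, 3 of 4 fell in MII with DMSO and rose with BYBX, against 88.3% and 65.2% of all entries, with median differences of -3.02 and 1.29. On a common FPKM total 2 fell and 1 rose with DMSO and 2 rose with BYBX, and with median centring 2 fell and 1 rose with DMSO and 1 rose and 1 fell with BYBX. Snrpc (chromosome 17, 27840087 to 27851965, plus strand) encodes U1-C, which helps U1 hold the start of the intron, and it had the largest fall of the 39 genes. Snrpc stood at 145 and 108 FPKM in GV, at 0.626, 0.583 and 0.865 FPKM in MII with DMSO, and at 49.6 and 28.5 FPKM in MII with BYBX. Without overlap between groups, its MII mean was 0.545% of the GV mean with DMSO and 30.8% with BYBX. The differences were -6.23 for MII with DMSO minus GV (standard error 0.28, limma adjusted p = 3.9e-10), 4.52 for BYBX minus DMSO (standard error 0.28, adjusted p = 4.5e-08) and -1.71 for BYBX minus GV (standard error 0.31, adjusted p = 3.3e-04). Of the 9202 entries, Snrpc ranked 72 from the lowest in the first of these comparisons and 49 from the highest in the next. Processed pseudogenes hold much of the 26.7% of its 50-base windows found in transcripts of other genes.

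Snrpa, the gene for the U1-A protein, fell from 38.5 and 30.4 FPKM in GV to 1.93, 1.001 and 1.86 FPKM in MII with DMSO, and stood at 5.87 and 9.02 FPKM in MII with BYBX, where its difference from GV of -2.08 was the lowest of the 39 genes, though 31.1% of its 50-base windows occur in transcripts of other genes. Snrpa1, the gene for the U2-A′ protein, had 75.1 and 75.0 FPKM in GV, 11.4, 17.0 and 16.8 FPKM in MII with DMSO, and 36.2 and 21.6 FPKM in MII with BYBX. Its partner on the same stem of U2 RNA is encoded by Snrpb2, which had 16.8 and 14.6 FPKM in GV, 9.57, 19.8 and 13.1 FPKM in MII with DMSO, and 17.1 and 14.9 FPKM in MII with BYBX. All 3 groups overlapped in Snrpb2, whose differences were -0.19 (standard error 0.29, limma adjusted p = 0.53) and 0.22 (standard error 0.29, adjusted p = 0.51), although the former was 1.57 on a common FPKM total (adjusted p = 3.4e-04).

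The SF3a and SF3b proteins form the part of U2 that settles on the branch site. All 8 tested genes fell in MII with DMSO, and 7 rose with BYBX, against 88.3% and 65.2% of all entries, with median differences of -2.07 and 1.21. With totals made equal, 4 were lower and 1 higher in MII with DMSO, and 4 were higher and 1 lower with BYBX. With median centring 3 were lower and 4 higher with DMSO, and 3 were higher and 1 lower with BYBX. Sf3b3, the gene for a scaffold subunit of SF3b, fell most, from 56.6 and 32.8 FPKM in GV to 1.30, 0.947 and 0.980 FPKM in MII with DMSO, and stood at 10.99 and 11.03 FPKM in MII with BYBX. Its differences were -4.41 and 2.54 (standard error 0.26 for both, limma adjusted p = 2.4e-09 and 2.1e-06). Sf3a3, the gene for the SF3A3 subunit, had the highest GV mean of the group, with 100 and 82.1 FPKM in GV, 6.64, 9.23 and 9.53 FPKM in MII with DMSO and 39.6 and 29.1 FPKM in MII with BYBX.

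Sf3b1 encodes the subunit that grips the branch site helix. It stood at 73.0 and 61.0 FPKM in GV, 46.2, 41.8 and 38.4 FPKM in MII with DMSO, and 51.2 and 48.3 FPKM in MII with BYBX, and both MII groups lay below GV in every library. Its difference of -0.65 in MII with DMSO (standard error 0.24, limma adjusted p = 0.021) was lost without GV replicate 1 (adjusted p = 0.0897), MII_DMSO replicate 2 (0.0598) or MII_DMSO replicate 3 (0.0689). It was 1.20 on a common FPKM total, and relative to the median of all entries it was 1.18. The difference of BYBX minus DMSO was 0.24 (standard error 0.24, limma adjusted p = 0.39) and that of BYBX minus GV was -0.42 (standard error 0.27, adjusted p = 0.17). The mean levels of Sf3b1 and Sf3b3 were 67.0 and 44.7 FPKM in GV, and 42.1 and 1.07 FPKM in MII with DMSO.

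Sf3a1 had 15.9 and 7.23 FPKM in GV, 3.59, 3.86 and 3.19 FPKM in MII with DMSO, and 7.46 and 5.88 FPKM in MII with BYBX, where it overlapped GV. Its difference of BYBX minus GV of -0.63 (limma adjusted p = 0.093) became -1.15 without GV replicate 2 (adjusted p = 0.00677), and its rise of 0.75 with BYBX over DMSO (adjusted p = 0.036) was lost without MII_DMSO replicate 3 or MII_BYBX replicate 1 (adjusted p = 0.0823 and 0.179). The other tested genes, Sf3b2, Sf3b4, Sf3b5 and Sf3b6, stood at 7.09% to 28.6% of their GV means in MII with DMSO and at 37.9% to 55.3% in MII with BYBX. Sf3b4 is uncertain, since 51.2% of its 50-base windows also occur elsewhere, nearly all in 1 processed pseudogene.

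All 8 Lsm genes fell in MII with DMSO and all 8 rose with BYBX, against 88.3% and 65.2% of all entries, with median differences of -3.17 and 2.02. On a common FPKM total 6 fell with DMSO and 6 rose with BYBX, against 49.5% and 39.9% of all entries, and with median centring 3 fell and 1 rose with DMSO and 4 rose with BYBX. Lsm5 had the highest GV mean of them, with 112 and 149 FPKM in GV, 5.61, 17.3 and 17.7 FPKM in MII with DMSO, and 124 and 37.3 FPKM in MII with BYBX. The BYBX libraries differed by more from each other than those of GV did, and the first lay within the GV range. Its difference of BYBX minus GV was -0.91 (standard error 0.54, limma adjusted p = 0.15), but -1.76 without MII_BYBX replicate 1 (adjusted p = 0.00852), and it also passed the threshold without MII_DMSO replicate 1 (adjusted p = 0.0276). For Lsm5, 44.0% of the 50-base windows occur in processed pseudogenes.

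On the log2(FPKM + 1) scale Lsm3 fell most of the Lsm genes, though not as a share of the GV level, which was 3.89% in MII with DMSO. It went from 70.4 and 80.6 FPKM in GV to 2.15, 2.72 and 3.94 FPKM in MII with DMSO, and stood at 24.2 and 23.6 FPKM in MII with BYBX. Its differences were -4.30 and 2.69 (standard error 0.26 for both, limma adjusted p = 2.6e-09 and 1.1e-06). Lsm6 reached the lowest share of its GV level, 1.77%, with 0.147, 0.113 and 0.385 FPKM in MII with DMSO, against 13.1 and 11.3 FPKM in GV and 3.55 and 3.97 FPKM with BYBX. Lsm4 had 53.4 and 59.1 FPKM in GV, 3.26, 4.91 and 9.91 FPKM in MII with DMSO, and 52.2 and 31.8 FPKM in MII with BYBX, and its difference from GV of -0.45 with BYBX (standard error 0.39, limma adjusted p = 0.31) did not pass.

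Lsm1 and Lsm8 set the 2 Lsm rings apart, since Lsm1 is found only in the cytoplasmic decay ring and Lsm8 only in the nuclear ring on U6. Lsm1 had 13.8 and 14.3 FPKM in GV, 2.40, 2.97 and 4.20 FPKM in MII with DMSO, and 7.07 and 8.07 FPKM in MII with BYBX. Lsm8 had 6.20 and 6.89 FPKM in GV, 0.682, 0.947 and 1.04 FPKM in MII with DMSO, and 4.32 and 3.43 FPKM in MII with BYBX. Neither gene had groups that overlapped. The differences of MII with DMSO minus GV were -1.87 (standard error 0.24) for Lsm1 and -2.001 (standard error 0.21) for Lsm8, and those of BYBX minus DMSO were 1.05 (standard error 0.24) and 1.36 (standard error 0.21), all past the threshold (limma adjusted p at most 0.002). After median centring both genes had positive differences in MII with DMSO, 0.44 for Lsm1 and 0.30 for Lsm8. For Lsm1 neither call was kept on a common FPKM total, where the differences were -0.25 and 0.34 (limma adjusted p = 0.364 and 0.265). Lsm8 kept both calls on that total, with differences of -0.72 and 0.90 (limma adjusted p = 0.0084 and 0.0044). As a share of the GV mean, Lsm1 stood at 22.7% and Lsm8 at 13.6% in MII with DMSO, and at 53.9% and 59.1% with BYBX. The low MII levels of Lsm8 are those whose change the log2(FPKM + 1) scale understates.

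Against GV, the differences with BYBX were -0.81 for Lsm1 and -0.64 for Lsm8 (limma adjusted p = 0.016 and 0.025). For Lsm1 this call was lost without GV replicate 1, GV replicate 2 or MII_BYBX replicate 1 (adjusted p = 0.0576, 0.0534 and 0.0707). For Lsm8 it was lost without GV replicate 2 or MII_BYBX replicate 2 (adjusted p = 0.0646 and 0.127).

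Lsm7 had the smallest differences of the Lsm genes. It stood at 13.7 and 17.98 FPKM in GV, 4.16, 10.2 and 8.13 FPKM in MII with DMSO, and 12.6 and 12.7 FPKM in MII with BYBX. The fall of -1.05 in MII with DMSO (standard error 0.31, limma adjusted p = 0.006) was lost without GV replicate 2 (adjusted p = 0.0858) and was 0.67 on a common FPKM total. The rise of 0.76 with BYBX over DMSO (standard error 0.31, limma adjusted p = 0.046) was lost on leaving out GV replicate 1, GV replicate 2, MII_DMSO replicate 1, MII_BYBX replicate 1 or MII_BYBX replicate 2 (adjusted p from 0.0784 to 0.215). Processed pseudogenes hold 62.8% of the 50-base windows of Lsm7.

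The 5 Prpf genes of the tri-snRNP all fell in MII with DMSO, and 4 rose with BYBX, against 88.3% and 65.2% of all entries, with median differences of -2.69 and 1.29. After equalising totals, 4 fell and 1 rose with DMSO, and 3 rose with BYBX, whereas with median centring 2 fell and 2 rose in each comparison. Prpf8 encodes the largest protein of the spliceosome, which cradles its active site, and had 24.7 and 18.3 FPKM in GV, 2.56, 2.10 and 2.71 FPKM in MII with DMSO, and 7.23 and 7.64 FPKM in MII with BYBX. Prpf31, which binds U4, fell most, from 20.0 and 14.5 FPKM in GV to 0.602, 0.784 and 0.165 FPKM in MII with DMSO, and stood at 5.82 and 4.56 FPKM in MII with BYBX. Its differences were -3.60 and 2.04 (standard error 0.25 for both, limma adjusted p = 1.1e-08 and 1.1e-05). Prpf3 and Prpf4, partners on the duplex of U4 and U6, stood at 5.69% and 9.62% of their GV means in MII with DMSO and at 29.2% and 30.6% with BYBX.

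Prpf6, which bridges U5 to the particle of U4 and U6, was the exception. It stood at 70.3 and 42.0 FPKM in GV, 34.6, 33.5 and 33.1 FPKM in MII with DMSO, and 55.4 and 43.2 FPKM in MII with BYBX, and the BYBX libraries lay within the GV range. The difference of MII with DMSO minus GV was -0.67 (standard error 0.27, limma adjusted p = 0.033), and it was -0.31 without GV replicate 1 (adjusted p = 0.304). Leaving out MII_DMSO replicate 2 or 3 also ended the call (adjusted p = 0.0703 and 0.0638), and on a common FPKM total the difference was 1.17. The differences of BYBX minus DMSO and minus GV were 0.52 (standard error 0.27, limma adjusted p = 0.11) and -0.15 (standard error 0.30, adjusted p = 0.67).

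Of the other Prpf genes, all 7 tested fell in MII with DMSO, and 4 rose with BYBX, against 88.3% and 65.2% of all entries, with median differences of -1.31 and 0.49. With totals made equal 2 fell and 2 rose with DMSO and 1 rose with BYBX, and with median centring 1 fell and 5 rose with DMSO and 1 rose and 4 fell with BYBX. Prpf38a, a factor needed to activate the assembled spliceosome, had 138 and 129 FPKM in GV, 3.61, 3.92 and 4.54 FPKM in MII with DMSO, and 39.4 and 29.0 FPKM in MII with BYBX. Its differences were -4.74 and 2.80 (standard error 0.25 for both, limma adjusted p = 9.0e-10 and 5.8e-07). Its relative by name, Prpf38b, had 29.8 and 23.8 FPKM in GV, 9.35, 15.8 and 12.01 FPKM in MII with DMSO, and 23.6 and 9.52 FPKM in MII with BYBX, with overlap between the MII groups. Its fall of -1.07 (limma adjusted p = 0.0095) was lost without GV replicate 1 (adjusted p = 0.121), and it was 0.71 on a common FPKM total. With BYBX it was higher than with DMSO only without MII_BYBX replicate 2 (0.90, adjusted p = 0.0372), and lower than GV without MII_BYBX replicate 1 (-1.39, adjusted p = 0.00474) or MII_DMSO replicate 1 (-0.78, adjusted p = 0.0396).

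Prpf39, a partner of U1, had 5.06 and 3.82 FPKM in GV, 1.14, 1.45 and 0.983 FPKM in MII with DMSO, and 1.49 and 2.01 FPKM in MII with BYBX, with a difference of BYBX minus DMSO of 0.33 (limma adjusted p = 0.18). Its transcript overlaps that of Fkbp3 on the opposite strand in 12.5% of its 50-base windows, and Smart-seq2 does not keep strand. Prpf4b, a protein kinase gene, had 8.03 and 3.46 FPKM in GV, 2.16, 1.52 and 1.21 FPKM in MII with DMSO, and 3.07 and 3.46 FPKM in MII with BYBX. Its rise of 0.71 with BYBX (limma adjusted p = 0.041) was lost on leaving out MII_DMSO replicate 2 or 3 or either BYBX library (adjusted p from 0.0732 to 0.117), and its difference of BYBX minus GV passed the threshold without GV replicate 2 (-1.08, adjusted p = 0.0106).

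Because BYBX binds rG4s, the transcripts were searched for the rG4 motif, in which 4 runs of 3 or more G are parted by loops of 1 to 7 bases, read on the sense strand of 1 protein-coding transcript per gene (GENCODE vM21, GRCm38). The motif occurred in 17.5% of the 8866 tested entries matched to such a transcript, and in 2 of the 39 tested snRNP genes, 5.13%. The median coding length of the snRNP genes was 768 bases, against 1338 bases over all matched entries, and their median transcript length was 2061 bases, against 2834. The sites are shown because they are the only predicted rG4s found in tested snRNP transcripts, with the runs of G in capitals. The first lies in the 5′ untranslated region (UTR) of Lsm1 (chr8:25785340-25785364, plus strand), and the others lie in that of Prpf40b (chr15:99295346-99295369 and chr15:99295375-99295398, plus strand).
Lsm1 5′ UTR: GGGtcaatccGGGcctcGGGtcGGG
Prpf40b 5′ UTR, upstream site: GGGGaggcGGGaGGGccgccGGGG
Prpf40b 5′ UTR, downstream site: GGGaccctgaGGGaGGGcgaGGGG

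Lsm1 rose by 1.05 with BYBX over DMSO on the log2(FPKM + 1) scale, and Prpf40b by 0.49 (limma adjusted p = 0.024). On a common FPKM total the differences were 0.34 and 0.29 (adjusted p = 0.265 and 0.214), and with median centring they were -0.23 and -0.79 (adjusted p = 0.375 and 0.00595). Prpf40b stood at 1.99 and 2.54 FPKM in GV, 0.175, 0.367 and 0.174 FPKM in MII with DMSO, and 0.824 and 0.650 FPKM in MII with BYBX. It thus passed the level filter only through its GV level, and every MII library lay under 1 FPKM. The mean level went from 0.239 FPKM with DMSO to 0.737 FPKM with BYBX for Prpf40b, and from 3.19 to 7.57 FPKM for Lsm1. Adding 1 to the FPKM understates the change of Prpf40b more than that of Lsm1. Their log2 differences therefore do not rank them, and that of Prpf40b cannot be set directly against a median over other genes. The median of the same difference over the 37 tested snRNP genes without the motif was 0.87. Over all entries the medians were 0.77 with the motif and 0.86 without it. Snrpc and Snrpd2, with the largest rises among the snRNP genes, held no such motif, which says only that these letters were not found in the transcripts read.

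The last 100 bases of the 3′ UTR were searched for the cytoplasmic polyadenylation element (CPE), written as TTTTAT or TTTTAAT on the sense strand, and for the polyadenylation signal AATAAA or ATTAAA, which can overlap a CPE. The CPE is known as a binding site of CPEB, through which stored oocyte mRNAs gain or lose poly(A) tail during maturation. It was taken up after the levels had been seen, so no test was made. A CPE was found in 10 of the 39 tested snRNP genes, 25.6%, against 19.9% of all matched entries, and a polyadenylation signal in 79.5%, against 80.6%. The genes with a CPE included Snrpd3, Snrpa1, Sf3a1, Sf3a3, Sf3b1, Lsm3, Lsm7, Prpf6 and Prpf8.

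In MII with DMSO minus GV, the median log2 difference was -1.21 over the 10 snRNP genes with a CPE and -2.001 over the 29 without, and it was -1.24 and -1.99 over all matched entries with and without one. With BYBX minus DMSO the medians were 0.75 and 1.36 over the snRNP genes and 0.58 and 0.92 over all entries. Of the genes with a CPE, Sf3b1 had the smallest fall from GV to MII with DMSO among the SF3 genes, Lsm7 among the Lsm genes and Prpf6 among the tri-snRNP genes. Snrpe, Snrpg and Snrpb2, with the highest differences in the Sm core and the U1 and U2 genes, had no CPE in this window. Lsm3, Sf3a3, Prpf8 and Snrpa1 also had a CPE, with differences of -4.30, -3.29, -2.69 and -2.26. Each of these fell further than the median of -1.83 over all tested entries, and the other tested snRNP genes with a CPE fell less. The ranges with and without the motif overlapped.

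The following sites are shown for 3 snRNP genes with a CPE and small changes, for Lsm3 as a gene with the motif that fell far, and for Snrpc as the gene that fell most. The first 4 have the CPE in capitals and Snrpc has its polyadenylation signal in capitals. All sites lie in the 3′ UTR and are written 5′ to 3′ on the transcript. In Lsm3 and Prpf6 the motif lies downstream of the polyadenylation signal. It ends 2 and 6 bases from the transcript end, and the signal ends 22 and 15 bases from it. In Snrpd3 and Sf3b1 the motif shown lies upstream of the signal. Whether the motif works as a CPE at these places was not tested.
Snrpd3 (chr10:75537336-75537365, plus strand): ctgtttggtttaTTTTATtgtattaataaa
Sf3b1 (chr1:54985222-54985251, minus strand): ttatattgtatTTTTAATatttgttgtatg
Prpf6 (chr2:181655631-181655660, plus strand): cttttactcattaaaggtTTTTATagagtt
Lsm3 (chr6:91522596-91522625, plus strand): aaattaaatttgatgtttccttTTTTATta
Snrpc (chr17:27851929-27851958, plus strand): gtgaaatgtgaaAATAAAgtcatcagctct

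**Figure D4:**
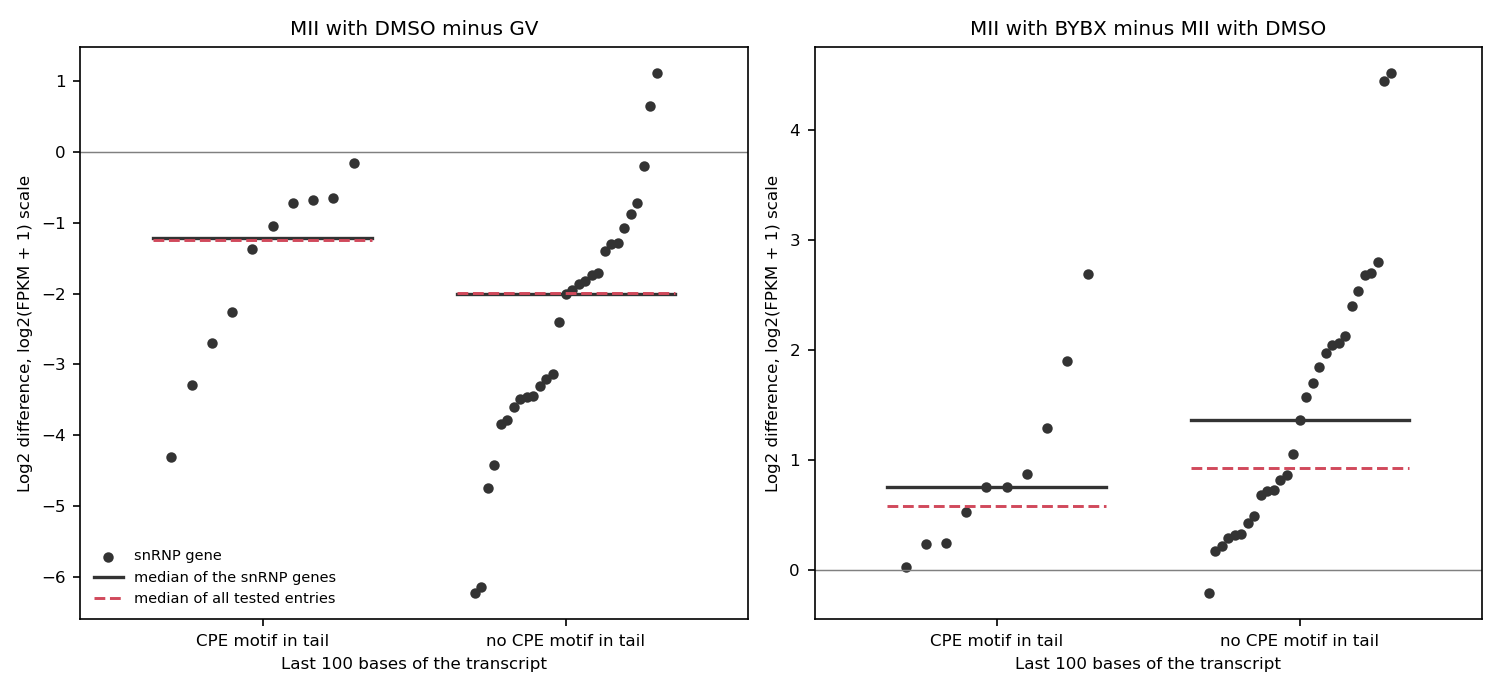
Log2 differences on the log2(FPKM + 1) scale of the 39 tested snRNP genes, split by whether the last 100 bases of the 3′ UTR hold a CPE motif, for MII with DMSO minus GV and for BYBX minus DMSO, with 1 point for each gene, a solid line at the median of the snRNP genes and a dashed line at the median of all matched entries. The 10 genes with the motif have a median of -1.21 in the left panel, against -2.001 for the 29 without, and both sets span a wide range.

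Other genes of the pathway were read from lists of spliceosomal and assembly factors. Of 74 tested genes in these lists, 67 fell from GV to MII with DMSO and 54 were higher with BYBX than with DMSO, against 88.3% and 65.2% of all entries, with median differences of -2.39 and 1.08. On a common FPKM total 42 were lower and 14 higher in MII with DMSO, and 32 were higher and 8 lower with BYBX. With median centring 23 were lower and 25 higher in MII with DMSO, against 26.7% and 48.8% of all entries. With BYBX 19 were then higher and 24 lower, against 18.4% and 43.9%. The balance of directions depended on the scaling, as it did over all entries. The counts of each list below are to be read against the same 88.3% and 65.2% of all entries, and those on a common FPKM total against 49.5% lower and 23.3% higher for MII with DMSO, and for BYBX against 39.9% higher and 8.22% lower. Among the catalytic factors, Bud31 had the highest GV level and the largest difference with BYBX. It stood at 465 and 471 FPKM in GV, at 1.603, 1.58 and 2.49 FPKM in MII with DMSO, and at 108.5 and 99.4 FPKM in MII with BYBX. Dhx15, a helicase that takes spent spliceosomes apart, had the lowest difference with BYBX in that list, -0.03 (limma adjusted p = 0.91), with 2.28, 3.34 and 2.70 FPKM in MII with DMSO and 2.24 and 3.17 FPKM in MII with BYBX. On a common FPKM total this difference of Dhx15 was -0.74 (limma adjusted p = 0.027). Of 14 tested genes for the SMN complex and other factors that load the Sm ring, 13 fell in MII with DMSO and 12 rose with BYBX, and on a common FPKM total 11 fell and 1 rose with DMSO and 8 rose with BYBX. With median centring 3 of these rose and 3 fell in each comparison, to be read against the median-centred shares of all entries given above.

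Gemin7, a subunit of the SMN complex, went from 228 and 198 FPKM in GV to 1.13, 1.77 and 1.996 FPKM in MII with DMSO and 62.6 and 48.0 FPKM in MII with BYBX. Smn1, its central subunit, had 32.2 and 19.8 FPKM in GV, 25.7, 34.9 and 31.2 FPKM in MII with DMSO, and 53.0 and 26.2 FPKM in MII with BYBX, with differences of 0.25 (limma adjusted p = 0.46) and 0.29 (adjusted p = 0.43). On a common FPKM total these Smn1 differences were 2.07 (limma adjusted p = 4.4e-05) and -0.58 (adjusted p = 0.074). With median centring they were 2.56 (limma adjusted p = 2.5e-05) and -0.99 (adjusted p = 0.010). GV and MII with DMSO did not overlap in Gemin7 and overlapped in Smn1.

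In the list of partners of U1, U2, U4, U5 and U6, all 19 tested genes fell in MII with DMSO and 14 rose with BYBX, whereas on a common FPKM total 11 fell and 3 rose with DMSO and 10 rose with BYBX. Phf5a, the SF3b subunit outside the naming rule, stood at 161 and 163 FPKM in GV, 15.5, 28.2 and 25.1 FPKM in MII with DMSO, and 92.8 and 51.9 FPKM in MII with BYBX. Ppih, a partner of Prpf3 and Prpf4, had the lowest difference of BYBX minus DMSO in that list, -0.57 (limma adjusted p = 0.42). It had 0.577, 6.28 and 5.58 FPKM in MII with DMSO and 4.89 and 0.383 FPKM in MII with BYBX. These groups overlapped, and MII_DMSO replicate 1 and MII_BYBX replicate 2 lay under 1 FPKM. This Ppih difference was -1.28 on a common FPKM total (limma adjusted p = 0.19) and -1.85 with median centring (adjusted p = 0.039). All 7 tested genes of the minor spliceosome fell in MII with DMSO and 5 rose with BYBX, and on a common FPKM total 4 fell and 1 rose with DMSO and 3 rose with BYBX. Among them was Snrnp25, from 24.4 and 24.0 FPKM in GV to 0.298, 0.141 and 0.243 FPKM in MII with DMSO and 11.4 and 5.94 FPKM in MII with BYBX.

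Of 11 tested genes for other Lsm proteins, decapping partners and the U7 particle, 7 fell in MII with DMSO and 6 rose with BYBX, whereas on a common FPKM total 3 fell and 5 rose with DMSO and 3 rose and 4 fell with BYBX. Lsm10, which replaces an Sm subunit in the U7 particle for histone mRNA ends, stood at 262 and 264 FPKM in GV, 2.71, 3.46 and 3.41 FPKM in MII with DMSO, and 84.7 and 61.2 FPKM in MII with BYBX. Patl1, a decapping factor that binds the Lsm1 ring, had 3.75 and 4.00 FPKM in GV, 2.34, 2.39 and 3.29 FPKM in MII with DMSO, and 1.78 and 3.11 FPKM in MII with BYBX, with differences of -0.42 (limma adjusted p = 0.11) and -0.11 (adjusted p = 0.67). On a common FPKM total these Patl1 differences were 1.02 (limma adjusted p = 0.0056) and -0.82 (adjusted p = 0.027). For comparison, 25 of 30 tested hnRNP and SR protein genes, which regulate splice site choice, were lower in MII with DMSO and 14 were higher with BYBX, with median differences of -1.28 and 0.59. On a common FPKM total 5 of them were lower and 14 higher in MII with DMSO, with a median of 0.33, and 2 were higher and 3 lower with BYBX. With median centring 2 of them were lower and 22 higher in MII with DMSO, against 26.7% and 48.8% of all entries. For BYBX against DMSO 1 was then higher and 21 were lower, against 18.4% and 43.9%. Whether the lists differ from the snRNP genes was not tested.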

How the data were processed

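Libraries were made with Smart-seq2 from 10 oocytes each and sequenced in paired ends. The deposited values are FPKM, which the authors made from uniquely mapped reads with Trim Galore 0.6.7, HISAT2 2.2.1 and Cufflinks 2.2.1 on mm10, and scaled to an added spike-in. They also scaled between batches, with the GV samples of a batch as the reference. Scaling factors and read depth are not given in the sources used here, spike-in and mitochondrial entries numbered 0, and no counting interval could be given. FPKM are not counts, so log2(FPKM + 1) was fitted with limma 3.58.1 (R 4.3.3, empirical Bayes with a trend), with 3 group means over 7 libraries and 4 residual degrees of freedom. Differences on this scale understate the change of low genes. Of 25912 entries, 4 with a missing value were removed, and the 9202 whose 3 group means averaged 1 FPKM or more were tested, with Benjamini-Hochberg adjustment over all of them and a threshold of 0.05. The script was tested on simulated data.

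Values in every library were given for the highest GV mean and the largest and smallest differences of each role group, for Lsm1, Lsm8, Snrpb and Snrpn, and for genes without a call or called against the majority. From the other pathway lists the highest GV mean and the extreme differences with BYBX were named. Values of some further genes (Lsm6, Prpf8, Prpf40b, Snrpa, Snrpa1) were added after they were seen. Results of 1 of the 42 genes are not reported here, and it enters the counts and medians but is not named. The genes and lists were chosen with earlier results of these data known. Transcripts and sequences are those of GENCODE vM21 (GRCm38, the same assembly as mm10), 1 coding transcript for each gene, matched by symbol for 96.3% of tested entries. Alternatives changed the pseudocount, the filter, the scaling, the libraries in the fit, the variance trend, a minimum fold and a replicate block, and the definition of the CPE, the last chosen after seeing the data. Python 3.11.15, pandas 2.3.3 and matplotlib 3.10.9 were used.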

Additional observations from a re-analysis of the deposited data

How the results depend on the processing

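The scaling of the libraries moved the results most. For MII with DMSO against GV, the 1 higher and 35 lower genes became 10 and 20 with FPKM totals made equal, and 18 and 13 with median centring. The median difference of -1.95 became -0.61 and 0.36 under these scalings, -2.51 with a pseudocount of 0.1 and -2.33 with a filter at 5 FPKM. The higher call became 0 without a filter and 0 with a replicate block. For BYBX against DMSO, 28 higher and 0 lower became 18 and 3 with equal totals and 13 and 13 with median centring. The median of 0.87 became 0.34 and -0.41 under these scalings, 1.35 with a pseudocount of 0.1 and 1.17 with a filter at 5 FPKM. For BYBX against GV, 0 higher and 24 lower became 4 and 3 with equal totals and 5 and 3 with median centring, with medians of 0.035 and 0.12 in place of -0.91. The higher count became 1 with a filter at 5 FPKM and 2 with fits of 2 groups. The cause was not tested, beyond the scaling itself.

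Leaving out 1 library at a time gave 0 to 2 higher and 29 to 35 lower genes for MII with DMSO against GV (median -2.16 to -1.87). It gave 21 to 27 higher and 0 to 0 lower genes for BYBX against DMSO (median 0.87 to 1.22), and 0 to 2 higher and 20 to 26 lower genes for BYBX against GV (median -1.15 to -0.84). The mean share of summed FPKM then ranged from 0.395% to 0.443% in GV, from 0.458% to 0.560% in MII with DMSO and from 0.415% to 0.537% in MII with BYBX. With 1 library left in a group, that library is assumed to vary like the others. Where the library left out is in neither group compared, only the shared spread changes and the difference does not. Same-numbered libraries deviated from their group means with correlations of 0.487 and 0.28 for GV and DMSO. The values were -0.33 and -0.33 for GV and BYBX, and -0.60 and -0.35 for DMSO and BYBX. In a group of 2 libraries the deviations mirror each other, so the values of GV and BYBX are not separate. Likewise, MII_DMSO replicate 1 had -0.60 with MII_BYBX replicate 1 and 0.60 with MII_BYBX replicate 2. These correlations therefore cannot show whether libraries were paired or shared a batch. The replicate block gave 0 higher and 32 lower calls for MII with DMSO against GV, 23 higher calls for BYBX against DMSO and 23 lower calls for BYBX against GV.

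Signs of single genes named by rule also turned, given here with their new values. For MII with DMSO minus GV, the sign turned with equal totals for Lsm7 (0.67), Prpf38b (0.71), Prpf4b (0.11), Prpf6 (1.17), Sf3a1 (0.24), Sf3b1 (1.20), Snrpb2 (1.57), Snrpd1 (0.91), Snrpd3 (1.72) and Snrpn (0.86). With median centring it turned for Lsm1 (0.44), Lsm7 (1.26), Lsm8 (0.30), Prpf38b (1.23), Prpf39 (0.997), Prpf4b (1.02), Prpf6 (1.63), Sf3a1 (0.93), Sf3b1 (1.65), Snrpb2 (2.11), Snrpd1 (1.43), Snrpd3 (2.15) and Snrpn (1.58). On leaving out 1 library at a time the values spanned 0 for Snrpb2 (-0.45 to 0.038) and Snrpd3 (-0.36 to 0.16). For BYBX minus DMSO, the sign turned with equal totals for Lsm7 (-0.045), Prpf38b (-0.56), Prpf39 (-0.23), Prpf6 (-0.35), Sf3b1 (-0.64), Snrpb2 (-0.63), Snrpd1 (-0.42), Snrpd3 (-0.86), Snrpg (-0.72) and Snrpn (-0.43). With median centring it turned for Lsm1 (-0.23), Lsm7 (-0.52), Prpf38b (-0.99), Prpf39 (-0.95), Prpf4b (-0.565), Prpf6 (-0.75), Sf3a1 (-0.53), Sf3b1 (-1.04), Snrpb2 (-1.06), Snrpd1 (-0.85), Snrpd3 (-1.25), Snrpg (-1.11) and Snrpn (-0.96). On leaving out 1 library at a time the values spanned 0 for Prpf38b (-0.32 to 0.90), Snrpb2 (-0.013 to 0.47), Snrpd3 (-0.50 to 0.55), Snrpe (-0.71 to 0.28) and Snrpg (-0.27 to 0.61). For BYBX minus GV, the sign turned with equal totals for Lsm1 (0.089), Lsm4 (0.52), Lsm5 (0.071), Lsm7 (0.62), Lsm8 (0.18), Prpf38b (0.16), Prpf4b (0.22), Prpf6 (0.82), Sf3a1 (0.25), Sf3b1 (0.56), Snrpd1 (0.49), Snrpd3 (0.86) and Snrpn (0.42). With median centring it turned for Lsm1 (0.21), Lsm4 (0.57), Lsm5 (0.12), Lsm7 (0.73), Lsm8 (0.39), Prpf38b (0.24), Prpf39 (0.045), Prpf4b (0.45), Prpf6 (0.88), Sf3a1 (0.40), Sf3b1 (0.61), Snrpd1 (0.58), Snrpd3 (0.90) and Snrpn (0.62). On leaving out 1 library at a time the values spanned 0 for Prpf6 (-0.51 to 0.22), Snrpb2 (-0.071 to 0.12) and Snrpd3 (-0.65 to 0.40). Over the 25 genes named by rule, 931 values under alternatives kept their direction and side of the threshold, 70 lost the call, 27 gained one and 88 changed sign. With TTTTAT alone as the CPE the median of MII with DMSO minus GV was -1.05 over 8 snRNP genes, and with the last 50 bases it was -1.21 over 6, both chosen after seeing the data.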
